A study of Rattus norvegicus with 4 samples.

Results

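AC134224.3 (ENSRNOG00000062158) is 1 of the 32883 genes counted in nuclei of rat adipose tissue, and it took more unique molecular identifiers (UMIs, each standing for 1 captured RNA molecule) than any other gene in each of the 4 libraries. It was chosen by its symbol because of that large share, and it was proposed as a measure of nuclear against cytoplasmic RNA. Its shares of UMIs, and their relation to depth, to mitochondrial UMIs and to cell class, are therefore descriptions and were not tested. Only the comparison of the 2 tissues, which the choice did not use, was tested. The symbol is a clone-based name that carries no function, and no role is assigned to the gene here. Its sequence, position and length were not used here, so its level was not set against other genes per unit of length.

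The nuclei came from frozen fat of naive male Dahl salt-sensitive rats (strain SS/HsdMcwiCrl, age 16 weeks), with 2 libraries from the perivascular adipose tissue of the thoracic aorta (taPVAT) and 2 from subscapular brown adipose tissue (BAT). All 4 libraries share strain, sex and age, and no treatment, diet change or genetic modification separates them. The labels do not say whether the same rats gave both tissues. Dahl rats are widely used to study blood pressure that rises with dietary salt. The tissue comparison therefore asks only how the fat around the aorta differs from a classical brown fat depot.

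In isolated nuclei most captured RNA is still inside the nucleus, where unspliced transcripts of long genes and some non-coding RNAs are held. RNAs for ribosomal proteins and for enzymes of the respiratory chain are mostly spliced and exported to the cytoplasm, and RNAs read from the mitochondrial genome never enter the nucleus. The share of mitochondrial UMIs is therefore a common measure of how much RNA from outside the nucleus a droplet holds. A droplet is known here by its barcode, the sequence tag shared by all RNA captured in it.

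Where 4 values follow each other below, they stand in the order taPVAT replicate 1, taPVAT replicate 2, BAT replicate 1 and BAT replicate 2. The files held 14765 to 44637 barcodes and 63654436 to 158140959 UMIs per library. Every barcode had at least 500 UMIs. Median depth lay between 2602 UMIs in BAT replicate 2 and 4027 in taPVAT replicate 2, and the median mitochondrial share between 7.28% and 10.7%. Replicate 2 of taPVAT stood apart, with 15.4% of its barcodes under 1000 UMIs against 6.94% to 10.4% in the others, and 16.2% of its barcodes at 30% or more mitochondrial UMIs against 0.71% to 8.51%. Between 2.18% and 3.18% of the barcodes of a library carried a tag sequence also present in another library, and leaving them out gave library shares of AC134224.3 of 13.7%, 12.7%, 13.2% and 14.1%.

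AC134224.3 was present in every barcode, and its level in droplets without a nucleus was not measured here. Of all UMIs it made up 13.73% (exact binomial 95% interval 13.73% to 13.74%) and 12.69% (12.68% to 12.69%) in the first and second taPVAT library, and 13.23% (13.22% to 13.24%) and 14.12% (14.11% to 14.12%) in the first and second BAT library. These intervals cover counting error only. The order of the libraries crosses the tissues, with a BAT library highest, a taPVAT library lowest and the others between them.

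By the mean over 4 libraries, the 5 genes that followed were all of the mitochondrial genome. Single libraries differed from that order: Ppargc1a, a coactivator of mitochondrial biogenesis, had 12743 CPM (counts scaled to 1e+06 UMIs) in taPVAT replicate 2, above Mt-co1 with 11019. In BAT replicate 2 it had 11292, above Mt-cyb with 11217 and Mt-atp6 with 8081. In replicate 1 of taPVAT and BAT it had 2945 and 1416. AC134224.1 had 8038 CPM in taPVAT replicate 1, above Mt-atp6 with 6657. Mt-co2, which encodes a subunit of cytochrome c oxidase, came next in every library, at 1.44%, 1.41%, 1.28% and 2.12% of UMIs. Counting UMIs without regard to transcript length, AC134224.3 therefore had between 6.66 and 10.3 times the UMIs of the next gene. Mt-co3 and Mt-co1, 2 further subunits of the same oxidase, averaged 13571 and 11301 CPM over the 4 libraries, Mt-atp6 of the ATP synthase 7837 and Mt-cyb (cytochrome b) 7720, against 134412 for AC134224.3.

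The share varied widely from barcode to barcode. The median barcode held 12.8%, 11.8%, 12.3% and 13.2% AC134224.3. The 5th percentile lay at 5.67%, 1.81%, 5.02% and 4.90%, and the 95th at 18.98%, 17.7%, 18.7% and 20.1%. The upper ends of the libraries lie close together, and the lower end of taPVAT replicate 2 lies far below the others. In that library the shares form 2 peaks, with 9.76% of barcodes between 13% and 14% and 9.01% between 2% and 3%. Between 6% and 7% it still held 1.98%. The other libraries have 0.09% to 0.40% of theirs between 2% and 3%. Smaller second peaks lay at 6% to 7% in taPVAT replicate 1 (5.06%, against 4.54% at 7% to 8%) and at 5% to 6% in BAT replicate 2 (5.21%, against 4.37% at 8% to 9%).

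**Figure D1:**
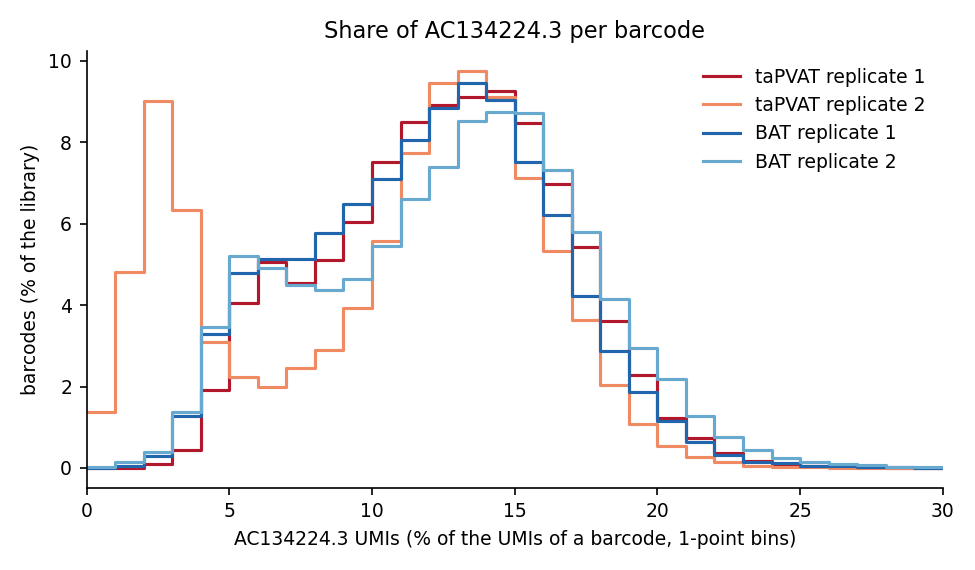
Share of AC134224.3 per barcode (x axis, % of the UMIs of the barcode, in bins of 1 percentage point) against the percentage of the barcodes of each library (y axis), 1 line per library. All 4 lines are highest between 13% and 15%, and taPVAT replicate 2 has a second peak between 2% and 3%, where it holds 9.01% of its barcodes. Smaller second peaks lie at 6% to 7% in taPVAT replicate 1 and at 5% to 6% in BAT replicate 2.

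AC134224.3 was the gene with the most UMIs in 97.1%, 77.5%, 94.1% and 88.97% of barcodes. Among barcodes under 10% mitochondrial UMIs it was the top gene in 99.4% to 99.98%. Among barcodes of 20% or more it was the top gene in 71.5%, 8.15%, 52.9% and 39.1%. The spread was also wider than counting error. In adipocyte-gated barcodes of 4000 to 8000 UMIs and under 10% mitochondrial UMIs the standard deviation of the share was 2.66 to 3.05 percentage points over barcodes, against 0.469 to 0.501 from binomial counting alone.

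Barcodes with few UMIs held a smaller share of AC134224.3. Between 500 and 1000 UMIs the median share was 6.60%, 2.64%, 6.02% and 6.01%. Between 2000 and 4000 UMIs it was 13.3%, 11.6%, 12.3% and 14.3%, and at 8000 or more it was 14.7%, 13.1%, 13.8% and 15.5%. All 4 libraries climb over the ranges up to 4000 UMIs, each spanning a doubling of depth. In narrower ranges taPVAT replicate 2 had 2.66% at 500 to 700 UMIs and 2.49% at 700 to 1000. Beyond 8000 UMIs taPVAT replicate 2 lies slightly below its 13.7% at 4000 to 8000 UMIs, and the others do not.

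The share was lower where the mitochondrial share was higher. In barcodes under 5% mitochondrial UMIs the median was 15.3%, 13.6%, 14.2% and 15.8%. At 10% to 20% it was 9.60%, 8.28%, 9.35% and 12.5%, and at 30% or more it was 5.68%, 2.54%, 5.43% and 5.76%. Each library falls at every step, and taPVAT replicate 2 ends lowest. Taking mitochondrial UMIs out of the denominator left the fall in place, from 15.9%, 14.2%, 14.8% and 16.4% of the remaining UMIs in the barcodes under 5% to 8.32%, 4.38%, 8.07% and 8.89% in those of 30% or more.

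**Figure D2:**
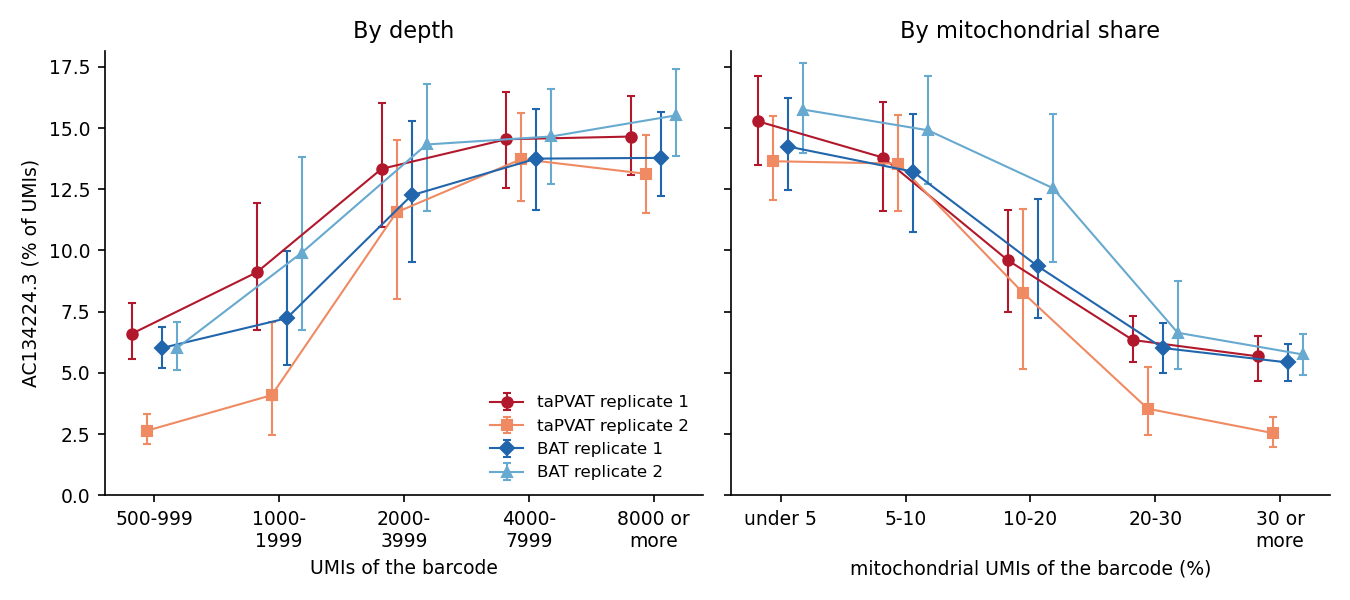
Median share of AC134224.3 (y axis, % of the UMIs of a barcode) by depth of the barcode (left, UMIs) and by mitochondrial share (right, %), for the 4 libraries. Points are medians over barcodes and bars run from the 25th to the 75th percentile. Medians reach 13.1% to 15.5% at 8000 or more UMIs and fall to between 2.54% and 5.76% at 30% or more mitochondrial UMIs.

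Depth and mitochondrial share were themselves tied together, with rank correlations over barcodes of -0.87, -0.89, -0.89 and -0.86. Over the 44637, 14765, 36950 and 29552 barcodes, the share of AC134224.3 had a rank correlation with the mitochondrial share of -0.68, -0.68, -0.60 and -0.61. With total UMIs it was 0.55, 0.65, 0.52 and 0.51. These coefficients describe barcodes of 1 library that share a denominator, so no p-value goes with them. With both quantities set against the UMIs that belong to neither, the first relation was -0.55, -0.59, -0.45 and -0.44.

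Holding one of the measures narrow separated them in part. Within each of 5 depth ranges of adipocyte-gated barcodes, the rank correlation of the AC134224.3 share with the mitochondrial share was negative in all 4 libraries, from -0.75 to -0.09. With a denominator holding neither quantity it ran from -0.61 to 0.10, and the positive value belongs to taPVAT replicate 2 at 4000 to 8000 UMIs. Within ranges of mitochondrial share the relation to depth took both signs, from -0.18 under 5% in taPVAT replicate 1 to 0.34 at 20% to 30% in replicate 2 of both tissues. In barcodes of 2000 to 4000 UMIs, for example, the median share was 16.3%, 13.5%, 14.9% and 16.2% where mitochondrial UMIs were under 5%. It was 10.5%, 8.87%, 10.1% and 13.4% where they were 10% to 20%. Within that range of depth, all 4 libraries show the lower share in the barcodes of 10% to 20%. Depth was not equal within it, and thinly filled ranges took another order: at 1000 to 2000 UMIs the median was 7.15% under 5% mitochondrial UMIs and 10.2% at 5% to 10% in taPVAT replicate 2 (19 and 61 barcodes), and 10.1% and 15.3% in BAT replicate 2 (7 and 477).

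The cell types of the tissue also held different shares. Barcodes were assigned to a class by exactly 1 list other than the adipocyte list. They carried at least 4 UMIs from at least 2 of its markers, at 8 times the library's average level or more. Barcodes with no such list and with at least 3 adipocyte markers, at 0.5 times the library's average level or more, were taken as adipocytes, the fat-storing cells. The classes are gates on marker genes and not clusters. The adipocyte gate took 104748 of the 125904 barcodes, and 9 classes held at least 20 barcodes in every library. Adipocyte markers in droplets without a nucleus were not measured, so the gate cannot tell adipocyte nuclei from background RNA. In taPVAT replicate 2 it held 1495 barcodes of 30% or more mitochondrial UMIs, with medians of 594 UMIs and 282 genes.

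Among these 9 classes adipocytes had the highest median share in every library, at 13.5%, 12.9%, 12.95% and 14.0%. Mural cells, the smooth muscle cells and pericytes of vessel walls, came second by median at 9.67%, 9.36%, 9.67% and 11.03%. Schwann cells, which wrap nerve fibres, followed at 8.74%, 8.43%, 8.25% and 10.1% from as few as 28 barcodes. The neuron class, with 14, 5, 6 and 2 barcodes, was too small to be ranked and had higher medians than adipocytes, at 15.2%, 14.7%, 13.4% and 16.5%. Adipocyte markers in it reached 106% and 91.4% of their adipocyte level in the taPVAT libraries. Under 10% mitochondrial UMIs they reached 97.8% and 123% in the BAT libraries. By these markers the neuron-gated barcodes were not told apart from adipocytes. The medians of adipocytes and mural cells do not overlap, while those of mural and Schwann cells overlap across libraries and keep their order within each. As a share of summed UMIs the order differed. Adipocytes were again highest of the 9 classes. B lymphocytes, at 11.9%, 9.95%, 11.1% and 11.8%, then lay above Schwann cells, at 9.12%, 8.04%, 8.37% and 10.1%. In taPVAT replicate 1, B and T or NK lymphocytes (11.88% and 11.76%) lay above mural cells (11.75%). In BAT replicate 2, T or NK lymphocytes (12.56%) lay above mural cells (12.24%).

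Fibroblasts, the matrix-producing cells, had medians of 8.72%, 5.79%, 8.54% and 9.23%. They lay under Schwann cells in 3 of 4 libraries, and the value of taPVAT replicate 2 stands well below the other 3. Myeloid cells, mainly macrophages, had 7.31%, 3.55%, 6.25% and 6.91%. B lymphocytes had 8.46%, 2.90%, 5.77% and 5.93%, and T or NK lymphocytes 7.94%, 2.78%, 5.42% and 6.35%.

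Vascular endothelial cells, which line the vessels, had 6.46%, 4.08%, 6.01% and 6.25%. They lay below B lymphocytes in 1 of 4 libraries and above T or NK lymphocytes in 2 of 4, whatever the order of the means over libraries. The classes from myeloid cells downward were thus not separated beyond the spread between libraries. In each of these classes taPVAT replicate 2 was the lowest library.

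In every library each of the other 8 classes also held more mitochondrial RNA and fewer UMIs in its median barcode than adipocytes did. Each also held UMIs of adipocyte markers, whose source was not measured. Median mitochondrial shares were 14.3% and 19.4% for the lowest and highest library of the Schwann class and 16.5% and 18.99% for vascular endothelial cells, against 6.59% and 9.87% for adipocytes. The summed adipocyte markers reached 43.7% to 62.4% of their adipocyte level in vascular endothelial barcodes and 52.0% to 74.4% in mural barcodes. Their part in the class shares was not tested.

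Among barcodes under 10% mitochondrial UMIs, 6 of the other 8 classes drew closer to adipocytes in all 4 libraries, and Schwann and erythroid barcodes did not. Adipocytes then had medians of 14.5%, 13.7%, 13.7% and 15.2%, and mural cells 12.8%, 12.4%, 12.7% and 14.1%, which is 88.6% to 92.8% of the adipocyte median. Vascular endothelial cells had 10.4%, 9.83%, 11.2% and 11.4%, or 71.8% to 81.7% of it. B lymphocytes reached 86.6% to 97.9% and T or NK lymphocytes 86.6% to 90.02%, on as few as 14 and 17 barcodes. Each of these 4 classes still lay below adipocytes in all 4 libraries, and the markers of adipocytes in them reached 68.7% to 93.9% of their adipocyte level. In B lymphocyte barcodes these markers reached 90.0% to 93.9% and in T or NK lymphocyte barcodes 83.4% to 92.1%. The shares of these barcodes therefore cannot be read as those of lymphocytes alone. Schwann cells went from 64.9%, 65.1% and 63.7% of the adipocyte median to 64.3%, 60.1% and 60.3% in the first 3 libraries, on 17, 3 and 6 barcodes, and none were left in BAT replicate 2. Erythroid barcodes of taPVAT replicate 2 went from 8.33% to 3.95%, and those of the other 3 libraries drew closer. The gates asked for 8 times the library's average level of their markers, so they were not equally strict. That average was 677 to 823 CPM of all UMIs for the Schwann list. It was 208, 3693, 191 and 1428 CPM for the erythroid list, and 18.3 to 27.3 CPM for the B and T or NK lymphocyte lists. The part of these levels in which classes drew closer was not tested.

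Within 2000 to 4000 UMIs, mural cells lay at 70.1% to 81.6% of the adipocyte median, fibroblasts at 48.8% to 68.6% and vascular endothelial cells at 32.1% to 51.6%. With mitochondrial UMIs held to 5% to 15% as well, the same 3 classes lay at 69.5% to 84.1%, 55.6% to 70.4% and 34.4% to 58.0%. All 3 were below adipocytes in 4 of 4 libraries in both settings. Depth was narrowed and not matched, since within 2000 to 4000 UMIs the median barcode still held 2857 to 3272 UMIs in adipocytes against 2395 to 2513.5 in vascular endothelial cells. At 1000 to 2000 UMIs fibroblasts and vascular endothelial cells were again below adipocytes in 4 of 4 libraries, but mural cells in 3 of 4, at 78.0% to 121% of the adipocyte median. In all 8 classes gated on a marker limit the median over all libraries was lower just inside the limit than just outside it. It was 6.91% inside and 10.95% outside in myeloid cells, 9.81% and 11.6% in mural cells, 8.81% and 9.73% in fibroblasts, and 6.52% and 8.39% in vascular endothelial cells.

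The relation to mitochondrial share was not the same in every class. The marker levels needed to enter the classes were not the same either. In T or NK lymphocytes the rank correlation over 67 to 269 barcodes lay between -0.81 and -0.68, and in B lymphocytes over 55 to 180 barcodes between -0.82 and -0.73. Barcodes of these 2 classes under 10% mitochondrial UMIs held adipocyte markers at 83.4% to 93.9% of their adipocyte level. The part of such barcodes in these coefficients was not tested. In vascular endothelial cells the rank correlation was -0.43, -0.46, -0.58 and -0.33. In Schwann cells it was -0.28 and -0.16 in replicate 1 of taPVAT and BAT and 0.10 in BAT replicate 2. With a denominator holding neither quantity, the Schwann values turned to 0.02, 0.11 and 0.36 and the vascular endothelial ones shrank to -0.19, -0.27, -0.38 and -0.07, while B and T or NK lymphocytes stayed between -0.74 and -0.53. In erythroid barcodes the rank correlation was -0.57, -0.63 and -0.27 in taPVAT replicate 1 and the BAT libraries. In the 321 erythroid barcodes of taPVAT replicate 2 the rank correlation was 0.29 and the Pearson coefficient -0.29, so the direction there depends on the coefficient.

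Erythroid barcodes, gated on haemoglobin and other red cell genes, had the lowest mean of the library medians among the 9 classes, and mature red blood cells of mammals are known to have no nucleus. Their median share of AC134224.3 was 6.49%, 1.08%, 6.25% and 4.30%. It was the lowest class in replicate 2 of both tissues, whereas in BAT replicate 1 it lay above vascular endothelial cells and B and T or NK lymphocytes, and in taPVAT replicate 1 it was close to the 6.46% of vascular endothelial cells. Within each library the share of AC134224.3 fell as haemoglobin UMIs made up more of the barcode. In barcodes under 5% haemoglobin it was 8.81%, 3.42%, 11.7% and 10.99% over 71, 13, 63 and 45 barcodes. In those of 20% or more it was 2.81%, 0.70%, 2.55% and 2.12%, over 12, 211, 16 and 103 barcodes. The barcodes under 5% were unlike between libraries, with median haemoglobin shares of 0.41%, 4.19%, 0.34% and 2.48%.

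Part of that fall is set by the denominator, because haemoglobin UMIs displace all others. With haemoglobin left out, AC134224.3 still made up only 4.05%, 1.13%, 3.62% and 3.21% of the remaining UMIs in the barcodes of 20% or more haemoglobin, against 9.15%, 3.54%, 11.8% and 11.4% in those under 5%. In none of these 342 high-haemoglobin barcodes was AC134224.3 the top gene. They held medians of 263 to 442 genes and 12.0% to 16.3% mitochondrial UMIs, against 10.5% to 23.9% in those under 5% haemoglobin, so the mitochondrial shares of the 2 sets overlap.

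**Figure D3:**
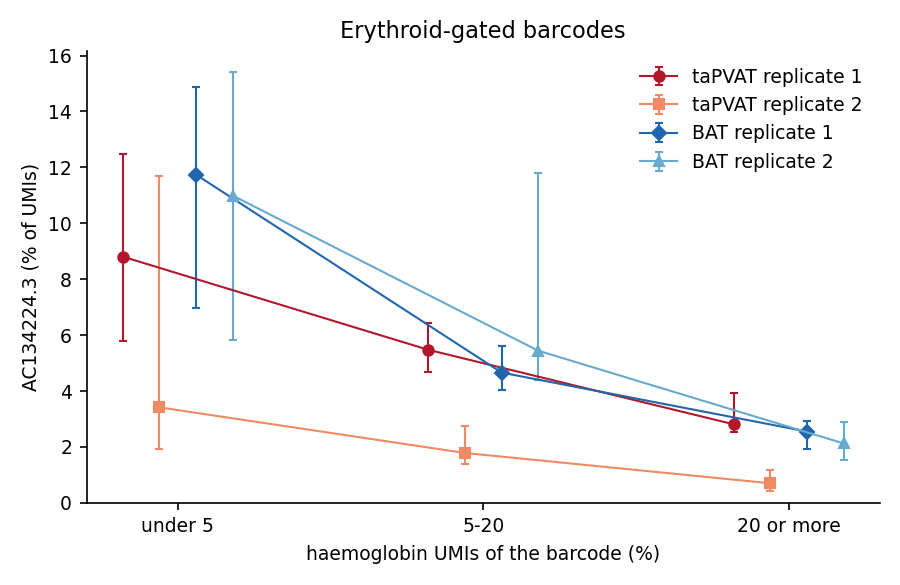
Share of AC134224.3 (y axis, % of the UMIs of a barcode) in erythroid-gated barcodes by their share of haemoglobin UMIs (x axis, %). Points are medians over barcodes of 1 library and bars run from the 25th to the 75th percentile. Each library falls from left to right, to between 0.70% and 2.81% at 20% or more haemoglobin.

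Gene lists for nuclear and cytoplasmic RNA were then set beside AC134224.3 in adipocyte-gated barcodes, comparing those of 20% or more mitochondrial UMIs with those under 5%. Levels are CPM over all UMIs except those of AC134224.3 and the 13 genes with a Mt- symbol. AY172581.24 and AY172581.9, whose names carry the accession of the rat mitochondrial genome, stayed in the denominator and went from 2115 to 26271 CPM and from 923 to 10761 CPM in the mean of 4 libraries. AC134224.3 had 187967 CPM in the low-mitochondrial barcodes and 97567 in the high-mitochondrial ones of taPVAT replicate 1, and 166514 and 55176 in taPVAT replicate 2. In BAT replicate 1 the levels were 175249 and 95692, and in BAT replicate 2 199501 and 116426. The mean log2 ratio of AC134224.3 was -1.05 ± 0.37 (SD, n = 4), and the drop was deepest in taPVAT replicate 2, at -1.59. There 130 barcodes lay at 20% to 30% mitochondrial UMIs and 1495 at 30% or more. The numbers were 2338 and 232 in taPVAT replicate 1, 1913 and 949 in BAT replicate 1, and 820 and 1596 in BAT replicate 2. Depth was not matched, with medians of 594 to 1297 UMIs in these ranges against 6073 to 7288 under 5%.

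Among 6732 genes of at least 20 CPM, 2.41% had a lower mean ratio than AC134224.3. Of these genes, 32.4% were higher and 42% lower in all 4 libraries in the high-mitochondrial barcodes, and their median log2 ratio was -0.14. These shares are the background for the lists below. The mitochondrial share chose the barcodes, so the lists are described and not tested.

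All 64 of the 73 cytosolic ribosomal protein genes that passed this level were higher in all 4 libraries, with a median log2 ratio of 2.77. Rpl41, of the large ribosomal subunit, went from 109 to 738 CPM. A gene can pass the level through the group in which it is high, so the count does not describe all members. The 21 measured genes of the nuclear-encoded respiratory chain, of 26 listed, were also all higher in the 4 libraries, with a median of 2.48. Cox4i1, a subunit of cytochrome c oxidase read from the nuclear genome, went from 408 to 2556 CPM, and Sdhb of succinate dehydrogenase from 469 to 796 CPM.

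Very long genes, whose unspliced transcripts make up much of the RNA of a nucleus, went the way of AC134224.3. Of the 10 measured, of 18 listed, 8 were lower in all 4 libraries and 1 was higher, with a median of -0.89. Pde4d, a phosphodiesterase that breaks down cyclic AMP, went from 4163 to 1973 CPM, a log2 ratio of -1.08 ± 0.20. Gphn, which encodes the scaffold protein gephyrin, had a ratio of -0.94 ± 0.28, and Ptprk, a receptor tyrosine phosphatase, -0.96 ± 0.29. These are among the most abundant of the list and lie at its low end; Magi1, a scaffold protein of cell junctions, was the one that was higher in all 4 libraries, at 0.51 ± 0.35.

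Genes for splicing and nuclear speckle factors were mixed. Of 19 measured, 11 were lower in all 4 libraries and 4 higher, with a median of -0.36. Prpf4b, a kinase of splicing factors, had -1.03 ± 0.25, Srrm2, a scaffold of nuclear speckles, -0.80 ± 0.25, and Luc7l2, a splicing factor, -0.56 ± 0.23. The helicase Ddx5 had 0.25 ± 0.12.

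The adipocyte markers split as well. Of 11 measured, 3 were lower and 4 higher in all 4 libraries, with a median of 0.21. Pparg, the master transcription factor of fat cells, had -0.75 ± 0.17, Acsl1, which activates fatty acids, -0.49 ± 0.10, and Ghr, the growth hormone receptor, -0.68 ± 0.13. Lpl, the lipase that frees fatty acids from lipoproteins, had 0.52 ± 0.29. Markers of 1 cell type thus went both ways between the same barcodes.

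**Figure D4:**
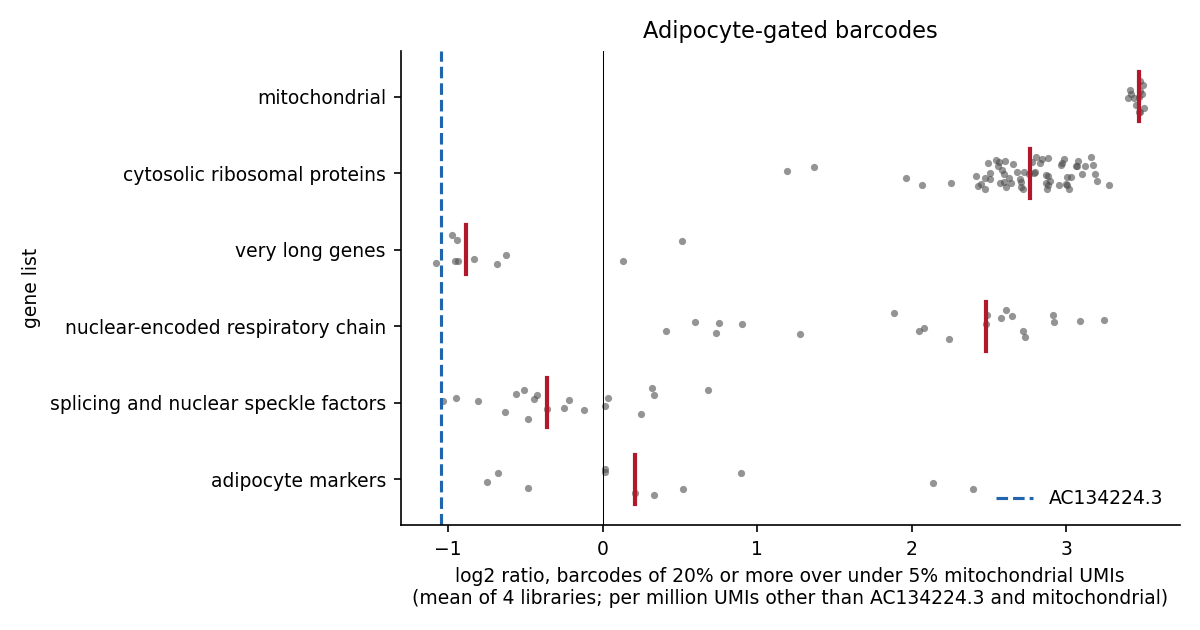
Log2 ratio of each measured gene of 6 lists (y axis) between adipocyte-gated barcodes of 20% or more and of under 5% mitochondrial UMIs (x axis, mean of 4 libraries). Grey points are genes, red bars are list medians and the dashed blue line is AC134224.3 at -1.05. The list of very long genes has its median at -0.89, and the ribosomal protein list at 2.77. The vertical position within a list is spread for legibility.

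With the 13 Mt- genes left out, the 10 genes with the largest ratios between these barcodes were led by Rbp7, a retinol-binding protein, with a log2 ratio of 3.57. Tmsb4x, an actin-binding thymosin, had 3.53. Others of the 10 were Lyz2, the lysozyme of macrophages, from 14.7 to 183 CPM, Cd74, which assists antigen presentation, from 10.9 to 130 CPM, Tyrobp, a signalling adaptor of myeloid cells, from 6.23 to 75.8 CPM, and Ptprc, the common leukocyte antigen, from 21.1 to 237 CPM. They also held Ccl5, a chemokine of lymphocytes, from 6.996 to 81.2 CPM, and Slfn4, of the schlafen family, from 18.97 to 245 CPM. Rbp7, Lyz2, Cd74, Tyrobp, Ccl5 and Slfn4 lay under 20 CPM in the low-mitochondrial barcodes and passed the level through the barcodes in which they are high. These genes were chosen after their values were seen, and marker lists of other cell types were not counted between these barcodes. Their part in the lower level of AC134224.3 was not tested.

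The genes whose level followed AC134224.3 most closely were sought across 2 sets of sums, on log2(CPM + 1) with the same denominator. Across 36 sums, 9 classes in 4 libraries, the 5 most like it among 7279 genes were Luc7l2, with a Pearson coefficient of 0.87, Urgcp and Dpyd with 0.86 each, and Dclre1a and Tra2a with 0.83 each. Tra2a encodes a splicing regulator and Dpyd the enzyme that starts pyrimidine breakdown. The median over all genes was 0.25. The sums share libraries, and all hold UMIs of adipocyte markers, so no p-value goes with these coefficients.

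The 5 least like it were B2m, which encodes the light chain of class I antigen-presenting molecules, with -0.83, H3f3c, a histone H3 gene, with -0.72, and AY172581.24, AY172581.9 and AABR07000398.1 with -0.70, -0.69 and -0.66. Luc7l2 averaged 1655 CPM in the adipocyte sums and 986 CPM in the vascular endothelial sums, where AC134224.3 had 176391 and 94235. B2m ran the other way, from 256 to 804 CPM.

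Across 20 sums, 5 ranges of mitochondrial share in the adipocyte gate of 4 libraries, Fam193a, Lman2l and Ikzf2 had coefficients of 0.98, and Kansl3 and Sec24a of 0.97. Of the 6699 genes in this set, 106 had a coefficient above 0.9 and 120 one below -0.9, with a median of 0.26. How many reached 0.97 was not counted. Ikzf2 encodes a transcription factor and Kansl3 a member of a chromatin-modifying complex, while Sec24a is part of a vesicle coat. The least like it were Tkt, Tmbim6 and Laptm4a with -0.96 and Retsat and Creg1 with -0.95. Tkt encodes transketolase of the pentose phosphate pathway and Retsat an enzyme of retinol metabolism. None of the 5 most alike across classes is among the 5 most alike across mitochondrial ranges.

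A pair of genes share the clone-based part of the name. AC134224.1 (ENSRNOG00000062127) averaged 6550 CPM of all UMIs, and AC134224.2 (ENSRNOG00000062155) was lower. Per 100 UMIs of AC134224.3 there were 5.85, 4.80, 4.95 and 3.92 of AC134224.1. The ratio was not constant: in barcodes of 30% or more mitochondrial UMIs it was 10.4, 10.1, 9.01 and 7.11.

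AC134224.2 changed in the same sense, from 1.18, 1.37, 1.23 and 0.775 per 100 UMIs over all barcodes to 2.97, 4.87, 3.47 and 2.12 in those of 30% or more. Between low- and high-mitochondrial adipocyte barcodes AC134224.1 had a log2 ratio of -0.30 ± 0.29 and AC134224.2 of 0.32 ± 0.22 (SD, n = 4), against -1.05 for AC134224.3. Across the class sums AC134224.1 ranked 25 in likeness (0.77) and AC134224.2 ranked 756 (0.56), and across mitochondrial ranges they ranked 2831 (0.38) and 5366 (-0.65). The counting settings were not stated in the sources used, so reads that the 3 genes may share could not be examined.

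As limits on droplets, AC134224.3 and the mitochondrial share were set side by side. A limit at 0.5 times the adipocyte median of each library, chosen for this description, marked 10.2%, 27.7%, 12.1% and 15.6% of barcodes as low. Of barcodes with 20% or more mitochondrial UMIs, 62.2%, 95.7%, 67.2% and 68.8% were low. Of those under 10%, 0.41%, 1.59%, 0.81% and 0.78% were.

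A mitochondrial limit of 10% kept 75.1%, 75.8%, 76.6% and 51.2% of adipocyte barcodes, but 14.6%, 13.4%, 22.7% and 10.4% of vascular endothelial ones. The limit on AC134224.3 kept 95.3%, 84.9%, 93.3% and 92.4% of adipocytes and 42.5%, 14.7%, 43.2% and 35.6% of vascular endothelial barcodes. Of fibroblasts it kept 78.6%, 42.1%, 79.9% and 73.4%, where the mitochondrial limit kept 35.5%, 10.4%, 33.7% and 23.9%. The 2 limits were not equally strict, so these values do not rank them. Over all barcodes the mitochondrial limit kept 67.3%, 61.9%, 69.1% and 44.6%, and the limit on AC134224.3 kept 89.8%, 72.3%, 87.9% and 84.4%. The latter was set from the adipocyte median, so keeping most adipocytes was built into it. Either limit removes a larger share of the endothelial than of the adipocyte class.

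Between the tissues no difference in AC134224.3 passed the test. Its share was 13.2% ± 0.739 (SD, n = 2) in taPVAT and 13.7% ± 0.627 (SD, n = 2) in BAT over all barcodes. The log2 ratio of taPVAT over BAT was -0.04 ± 0.26 (SE), with a Benjamini-Hochberg adjusted p of 1 in the quasi-likelihood test of edgeR. The dispersion behind this SE and p was shared over genes, so neither measures the spread of AC134224.3 alone. The same test called 0 of 16997 genes (0%), with 504 at an unadjusted p under 0.05, and DESeq2 called 124, so the test made few calls of any kind and its result does not show that the tissues are alike.

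In adipocytes the share of summed UMIs was 14.2%, 13.4%, 13.6% and 14.7%, and the tissues overlap. The log2 ratio was 0.01 ± 0.35 (SE; edgeR, adjusted p = 1, with 0% of 16437 genes called).

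In the other 8 classes the log2 ratio lay between -0.33 in erythroid barcodes and -0.06 in B lymphocytes, below 0 in 8 of 8. These classes come from the same libraries and are not separate observations. Replicate 2 of taPVAT had the lowest share of summed UMIs in each of them. How many other genes lay below 0 in all 8 was not counted. The adjusted p in edgeR lay between 0.996 and 1. The share of genes called was 0.00988% in mural cells, 0.0592% in fibroblasts and 0% in the other 6. Mural cells had 11.2% ± 0.829 in taPVAT and 11.8% ± 0.634 in BAT, fibroblasts 8.89% ± 2.48 and 10.6% ± 0.401, and vascular endothelial cells 6.72% ± 1.35 and 8.02% ± 0.647 (SD, n = 2 each).

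As a share of summed UMIs the ranges of the 2 tissues overlapped in each of the 9 classes. On TMM-scaled levels they did not overlap in 2 classes. These levels used scaling factors over all genes, whereas the fits used factors over the filtered genes. Vascular endothelial cells had 76035 and 55462 CPM in taPVAT and 83258 and 80704 in BAT, and erythroid barcodes 67571 and 65370 against 82431 and 91090. With 1 library left out at a time the ratio stayed below 0 in erythroid barcodes (-0.39 to -0.24), vascular endothelial cells (-0.54 to -0.13), fibroblasts, Schwann cells and mural cells. It turned sign in adipocytes (-0.134 to 0.095), myeloid cells, B lymphocytes and T or NK lymphocytes. Without taPVAT replicate 2 the ratio was -0.04 in fibroblasts in place of -0.30, 0.06 in myeloid cells in place of -0.26 and 0.05 in T or NK lymphocytes in place of -0.25, while without taPVAT replicate 1 it was -0.60 in fibroblasts, -0.68 in myeloid cells and -0.65 in T or NK lymphocytes. With 2 libraries per tissue a two-sided exact permutation test on these shares or levels cannot go below p = 0.333. The 2 classes without overlap therefore do not show a difference between the tissues. How many other genes lacked overlap was not counted. Erythroid barcodes also differed between libraries in the red cell UMIs needed to enter the class.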

How the data were processed

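Single-nucleus libraries were made with a droplet 3-prime kit from frozen tissue, per the labels. The authors deposited raw UMI counts per gene and barcode, made with Cell Ranger 7.1.0 on Rnor_6.0 per the submitters' processing notes. The sources used here do not give the rule by which barcodes were kept or whether introns were counted. The gene, the gates and all gene lists were chosen with earlier results of these data known. Gates were set on the data. No doublet caller was run: barcodes in 2 or more classes were set aside, and barcodes above the 95th percentile of UMIs were left out as an alternative.

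UMI counts of each library, and of each class within it, were summed and fitted with edgeR 4.0.16 (TMM, filterByExpr, quasi-likelihood, Benjamini-Hochberg over all genes; R 4.3.3). DESeq2 1.42.0 was an alternative. The labels do not show that same-numbered libraries come from the same rat, so no pairing was used. P-values rest on the spread between these libraries, with dispersions shared over genes. The SE of AC134224.3 is therefore not its own spread between libraries. Likeness was computed among genes of at least 20 CPM, with a pseudocount of 1. The genes named were AC134224.3, the 5 next by CPM, the 5 most and 5 least like it in each set of sums, and up to 4 abundant members of each list. Outside that rule, Ppargc1a, Magi1, the 2 genes that share the clone name and genes with the largest ratios by mitochondrial share were named after their values were seen. A list of 14 nuclear-retained non-coding RNAs was not analysed here, since only 1 symbol was matched and it lay under 20 CPM. The test was also run on simulated counts, whose outcome is not given here. Python 3.11.15, numpy 2.4.6, scipy 1.17.1 and pandas 2.3.3 were used.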

Additional observations from a re-analysis of the deposited data

How the results depend on the processing

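No alternative brought AC134224.3 past the threshold between the tissues: over 116 alternative fits the adjusted p lay between 0.801 and 1 (edgeR or DESeq2) and the log2 ratio of taPVAT over BAT between -0.68 and 0.10. The direction over all barcodes turned from -0.039 to 0.0081 with only barcodes under 10% mitochondrial UMIs, and in adipocytes from 0.0081 to -0.022 with DESeq2. Leaving out 1 library at a time gave -0.135 to 0.029 over all barcodes, -0.134 to 0.095 in adipocytes, -0.22 to -0.0014 in mural cells, -0.60 to -0.04 in fibroblasts, -0.36 to -0.0010 in Schwann cells, -0.54 to -0.13 in vascular endothelial cells, -0.675 to 0.056 in myeloid cells, -0.213 to 0.081 in B lymphocytes, -0.649 to 0.049 in T or NK lymphocytes and -0.39 to -0.24 in erythroid barcodes. A lone library left in a tissue is assumed to vary like the others.

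Deviations from the tissue means of same-numbered libraries correlated at 0.15 to 0.67 over genes in 2 pairs. The replicate block gave AC134224.3 a log2 ratio of -0.038 over all barcodes (edgeR adjusted p 0.988) and 0.011 in adipocytes, and called 139 of all 16997 genes in place of 0 and 147 in adipocytes in place of 0. DESeq2 called 124 and 70, and leaving out 1 library gave 0 to 43 and 0 to 116. In mural cells, fibroblasts and vascular endothelial cells the block called 91, 112 and 284 genes in place of 1, 6 and 0.

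The share over all barcodes moved from 13.2% in taPVAT and 13.7% in BAT to 14.2% and 14.9% without mitochondrial UMIs in the denominator, to 12.3% and 12.7% as medians over barcodes, and to 14.0% and 14.5% with only barcodes under 10% mitochondrial UMIs. The mean rank correlation with mitochondrial share moved from -0.64 to -0.56 without mitochondrial UMIs in the denominator and to -0.54 in barcodes of at least 500 genes, and that with total UMIs from 0.56 to 0.48 and 0.44. The other alternative settings, thinning to 500 UMIs among them, moved these values by less than the spread between libraries. A denominator holding neither quantity was not among these settings. With it the rank correlation with mitochondrial share was -0.55, -0.59, -0.45 and -0.44. Of the alternatives for class shares, 34 moved the share by the SD between libraries of a tissue or more, and 70 did not. Settings added after the data were seen were the limit of 10% mitochondrial UMIs and the stricter gate in the tissue fits. Counting error was small beside the spread between libraries, with an interval of 13.73% to 13.74% in taPVAT replicate 1 against an SD of 0.739 percentage points in taPVAT. What limits the number of calls between the tissues was not tested.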
